A study of Mus musculus with 6 samples.

Results

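The mRNAs of the cytosolic ribosomal proteins were followed in mouse heart under 2 oral anticoagulants. Genes were taken by name from the deposited table: protein-coding rows whose symbol begins with Rpl or Rps followed by a digit, plus the stalk genes Rplp0, Rplp1 and Rplp2 and the small-subunit gene Rpsa. The Rps6k kinases (10 rows) and symbols marked as pseudogene copies (4 rows) were left out. The rule took 78 of the 16229 genes in the table, and all 78 passed the filter on low values. They comprised 39 proteins of the large subunit, 31 of the small subunit, 3 of the stalk, 4 paralogs (Rpl3l, Rpl22l1, Rpl36al and Rps27l) and 1 gene, Rps19bp1, whose product binds the ribosomal protein RPS19 and is not part of the ribosome. Fau, which encodes a fusion protein carrying a ribosomal protein, has a name outside the rule.

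Poly-A RNA was sequenced from the hearts of male wild-type C57BL/6 mice aged 8 to 10 weeks, with 2 libraries in each of 3 groups. The groups were untreated mice (replicates 8 and 9), mice given the factor Xa inhibitor rivaroxaban at 3 mg/kg (replicates 14 and 15) and mice given the thrombin (factor IIa) inhibitor dabigatran at 10 mg/kg (replicates 10 and 12), each drug for 7 days. The protocol text describes the tissue as infarct with its surroundings. It does not say whether the untreated mice were operated on, or that each library came from a separate animal, so the p-values below measure only the spread between these samples. The drugs were given at different doses, and both comparisons with untreated heart use the same 2 untreated libraries. Myh6, the main myosin heavy chain of adult mouse heart muscle, stood between 15.18 and 15.25 log2 CPM in the 6 libraries, while S100a8, a neutrophil gene, was low in every library, between -1.43 and -0.72.

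Each ribosome joins a small subunit, which reads the mRNA, to a large subunit, which makes the peptide bond. The ribosomal proteins are made in nearly equal amounts and are assembled onto ribosomal RNA in the nucleolus. Most of their mRNAs begin with a run of pyrimidines, the 5′ terminal oligopyrimidine (TOP) motif, through which the kinase complex mTORC1 and the protein LARP1 control their translation and stability. Heart and skeletal muscle also express Rpl3l, a muscle paralog of Rpl3 whose protein takes the place of RPL3 in part of the ribosomes.

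The promoter table of RefSeq (GRCm38.p6) held 58 of the 78 genes. In the 30 bases centred on an annotated start, a run of at least 8 pyrimidines was present in 24 of the 58 (41.4%), against 13.9% of the 27025 genes in that table. The windows below belong to genes at either end of the ranking by log2 difference that have such a run. They were picked for having the run, and are examples of the pyrimidine-rich starts found in a minority of the 58; in Rps27l the run ends before the annotated start. Letters read 5′ to 3′ on the gene's strand, the annotated start follows the first 15 bases, and the longest pyrimidine run is in capitals.
Rpl34 (chr3:130730323-130730352, minus strand): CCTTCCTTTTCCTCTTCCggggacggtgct
Rplp2 (chr7:141447636-141447665, plus strand): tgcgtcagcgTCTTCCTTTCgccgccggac
Rps27l (chr9:66946071-66946100, plus strand): ccaCTCCTCCCCgccgcctctatcccggaa
Rpl22l1 (chr3:28805493-28805522, plus strand): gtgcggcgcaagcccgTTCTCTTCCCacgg
Rps24 (chr14:24490663-24490692, plus strand): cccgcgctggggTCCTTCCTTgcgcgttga
Rps9 (chr7:3704026-3704055, plus strand): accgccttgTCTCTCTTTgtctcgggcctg
Rps6 (chr4:86857353-86857382, minus strand): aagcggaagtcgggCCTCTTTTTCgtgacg
Rps27 (chr3:90213634-90213663, minus strand): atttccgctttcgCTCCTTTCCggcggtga
The genes shown include both Rpl34, among the lowest with rivaroxaban, and Rps24, the highest. In the longer window from 250 bases before to 50 after the start, the letters CCGGAA, the core bound by ETS family factors, occurred on either strand in 32 of the 58 genes (55.2%), against 16.7% of all genes in the table. GGGCGG, the core of the GC box, occurred in 36 (62.1%) against 38.2%. AAGATGGC, the core bound by YY1, occurred in 4 (6.90%) against 3.19%. The last bases of CCGGAA are the first of AAGATGGC, so matches of these can overlap. These are matches of letters, and binding was not measured.

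Library depth ran from 27176892 to 43798222 reads over the genes of the table. No member had fewer than 276 reads in any library. Ribosomal protein mRNAs took 2.24% of the reads of untreated replicate 8 (95% exact Clopper-Pearson interval 2.23% to 2.24%) and 2.19% of untreated replicate 9 (2.19% to 2.20%). With rivaroxaban the shares were 2.10% (2.10% to 2.11%) in replicate 14 and 2.07% (2.06% to 2.07%) in replicate 15. With dabigatran they were 2.16% (2.15% to 2.16%) in replicate 10 and 2.05% (2.05% to 2.06%) in replicate 12. In these raw shares both untreated libraries lay above all 4 treated libraries, and the dabigatran libraries spanned the rivaroxaban values. On the TMM scale used for all other values they overlapped with dabigatran: the median member stood at 8.07 and 7.99 log2 CPM untreated, 7.91 and 7.89 with rivaroxaban, and 8.00 and 7.91 with dabigatran, with replicate 10 just above untreated replicate 9. The intervals on the shares cover counting error only and leave out the spread between samples. They also treat reads as independent, and the reads carry no molecular identifiers. In bulk tissue, fewer cells of a type and less RNA per cell cannot be told apart.

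With rivaroxaban, ribosomal protein mRNAs were slightly below untreated heart as a body: all 78 had a negative log2 difference, against 48.5% of the 12981 genes tested. The median log2 difference was -0.11, which is 0.926 of the untreated level, and the quartiles were -0.13 and -0.08. Over all tested genes the median was 0.01. In 72 of the 78 (92.3%) both rivaroxaban libraries lay below both untreated ones, against 24.5% of all tested genes. Libraries overlapped for Rpl22l1, Rpl36a, Rpl3l, Rps2, Rps24 and Rps27. In tests of single genes, 28 (35.9%) had an unadjusted p under 0.05 against 17.2% of all genes. Only 1, Rpl3, passed limma's test at a Benjamini-Hochberg adjusted p of 0.05 over all tested genes, and it fell. The share of all tested genes called in either direction was 2.46%, with 0.986% called lower and 1.47% called higher.

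With dabigatran the differences from untreated heart were smaller and depended on the library. The median log2 difference was -0.06, or 0.961 of the untreated level, against 0.003 over all tested genes, and 75 of 78 genes had a negative difference, against 49.2% of all tested genes. Both dabigatran libraries lay below both untreated ones in 38 genes (48.7%), against 20.8% of all tested genes. An unadjusted p under 0.05 was found for 6 genes, Rpl3, Rpl4, Rpl5, Rpl8, Rpl21 and Rps19, a share of 7.69% against 14.7% of all tested genes. Rpl3 alone passed the adjusted test, again lower, where 1.88% of all tested genes were called in either direction, 0.501% lower and 1.38% higher.

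The dabigatran libraries stood apart from each other. All 78 genes were higher in replicate 10 than in replicate 12, by a median of 0.08 log2, whereas 62 of 78 were higher in untreated replicate 8 than 9 and 48 of 78 in rivaroxaban replicate 14 than 15. Replicate 10 was the shallowest library and replicate 12 the deepest of the series; the part of depth in this gap was not tested. Replicate 10 lay a median of 0.02 log2 below the untreated mean, with 49 of 78 genes below it, and replicate 12 lay 0.10 below, with 75 of 78 genes below. The median dabigatran difference was therefore -0.02 without replicate 12 and -0.10 without replicate 10. Without untreated replicate 8 it was -0.04, with 66 of 78 genes below 0.

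**Figure D1:**
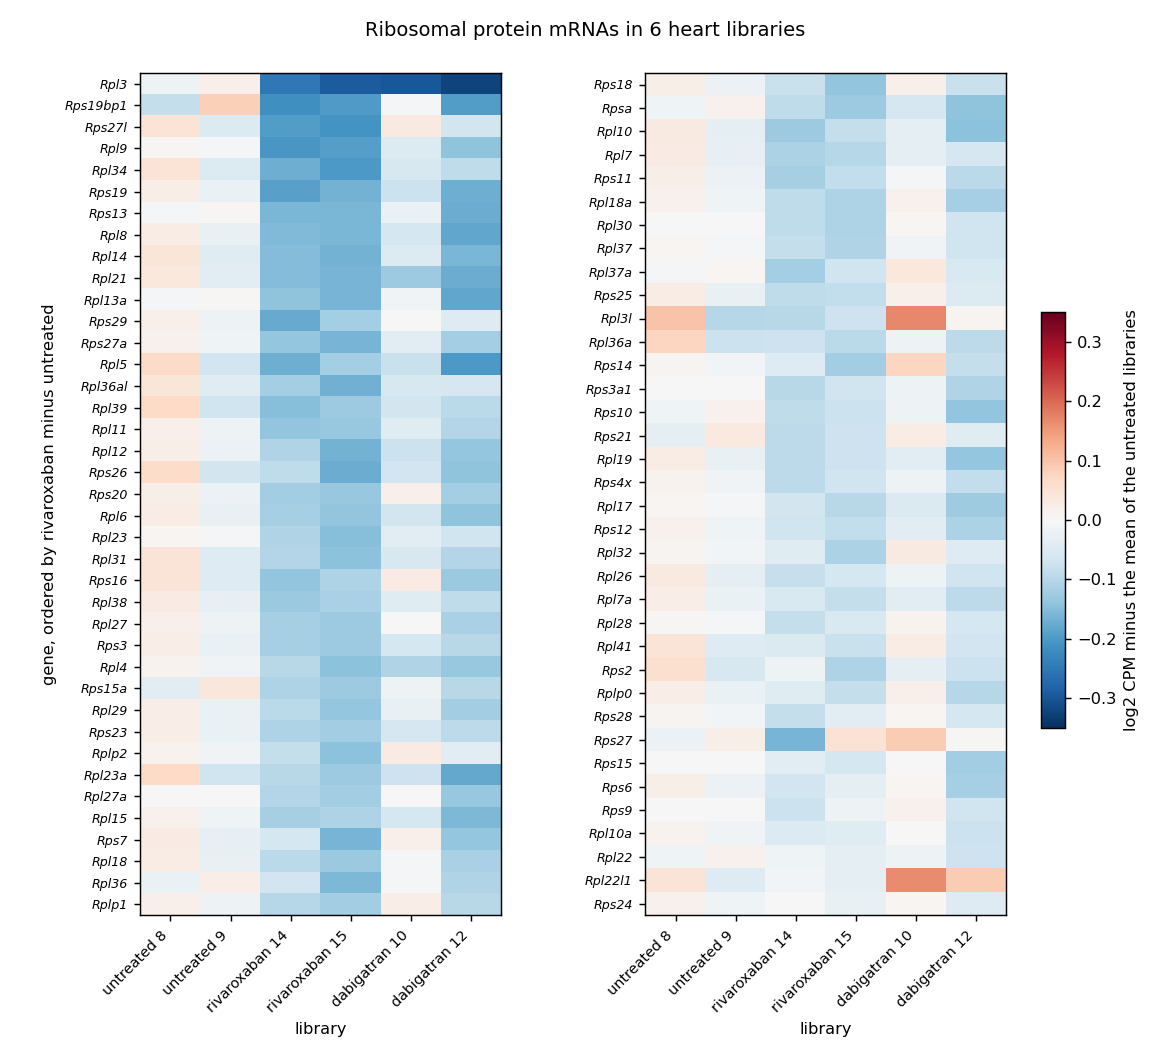
Colour shows the log2 CPM of 75 of the 78 genes in each of 6 libraries (columns) minus the mean of the 2 untreated libraries, with genes (rows) ordered by the rivaroxaban difference from the top of the left panel to the foot of the right one. Blue is below the untreated mean and red above it. The rivaroxaban columns and dabigatran replicate 12 are mostly blue, and dabigatran replicate 10 is mixed: over all 78 genes, 49 lay below the untreated mean there.

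Rpl3 encodes a core protein of the large subunit that reaches the centre where peptide bonds form. The gene (ENSMUSG00000060036) lies on chr15:80077791-80091868 of GRCm38, minus strand. Its log2 CPM was 7.70 and 7.74 in the untreated libraries, 7.47 and 7.43 with rivaroxaban, and 7.42 and 7.39 with dabigatran. All 4 treated libraries lay below both untreated ones, and the drug groups did not overlap each other. Rpl3 fell with rivaroxaban by 0.27 log2 (SE 0.05, limma adjusted p = 0.0190), to 0.829 of the untreated level, and had rank 149 by p among the 12981 genes. With dabigatran it fell by 0.31 log2 (SE 0.05, limma adjusted p = 0.0115), to 0.806 of the untreated level, at rank 77. Between the drugs the log2 difference, rivaroxaban minus dabigatran, was 0.04 (SE 0.05, adjusted p = 0.882).

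The Rpl3 call was close to the threshold. It was lost with rivaroxaban when limma was run without rivaroxaban replicate 14 (adjusted p = 0.0868) or 15 (0.236), or without untreated replicate 8 (0.0668) or 9 (0.0813). It was lost with dabigatran without untreated replicate 8 (0.0546) or 9 (0.0551). Over these alternatives the log2 difference stayed between -0.29 and -0.25 with rivaroxaban and between -0.33 and -0.29 with dabigatran. The span of Rpl3 shares 535 bases with Syngr1, a synaptic vesicle gene on the opposite strand. Whether the counting used strand is not given in the sources used here. Syngr1 had log2 differences of 0.01 with rivaroxaban (adjusted p = 0.961) and 0.05 with dabigatran (adjusted p = 0.775). The other tested genes within 100 kb, looked up after the Rpl3 values were seen, were Pdgfb, Tab1 and Mgat3, and none passed the test for either drug. GENCODE names 2 pseudogene copies of Rpl3, and 284 copies of 56 of the 78 genes, so reads of near-identical copies may have been split.

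The muscle paralog Rpl3l (ENSMUSG00000002500, chr17:24727820-24736143, plus strand) did not show the pattern of Rpl3. Its log2 CPM was 8.75 and 8.55 in the untreated libraries, 8.56 and 8.58 with rivaroxaban, and 8.82 and 8.66 with dabigatran. The groups overlapped with untreated heart for both drugs. The log2 difference was -0.08 (SE 0.07, adjusted p = 0.576) with rivaroxaban and 0.09 (SE 0.07, adjusted p = 0.619) with dabigatran. Per kilobase of transcript, Rpl3l was the more abundant of the pair in every library. Its CPM per kilobase was 2.04 and 1.73 times that of Rpl3 in the untreated libraries, 2.09 and 2.18 times with rivaroxaban, and 2.59 and 2.36 times with dabigatran. On the log2 scale of CPM the ratio was 0.93 ± 0.17 (SD, n = 2) untreated, 1.12 ± 0.04 (SD, n = 2) with rivaroxaban and 1.33 ± 0.09 (SD, n = 2) with dabigatran, and the 3 groups did not overlap. No test was made of this ratio.

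**Figure D2:**
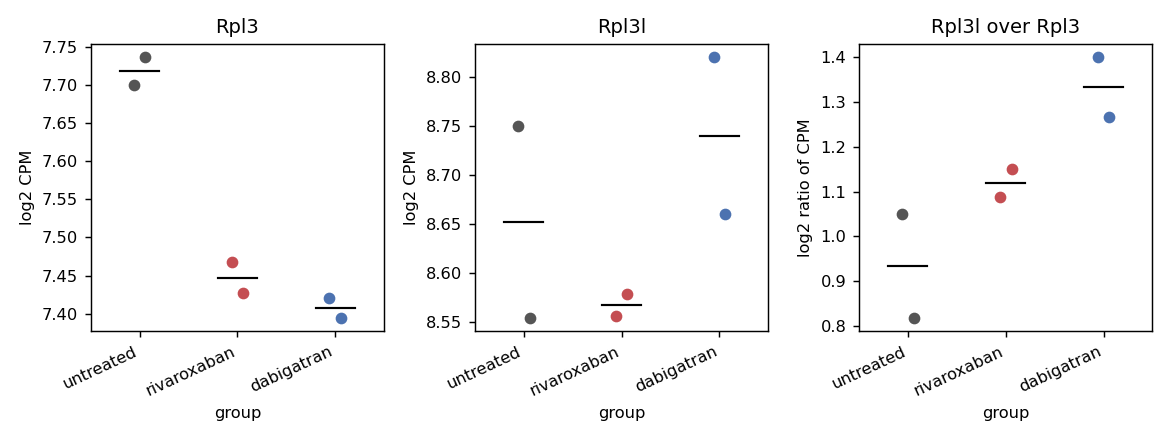
Points are libraries, 2 per group, and black lines are group means. The left and middle panels give log2 CPM of Rpl3 and Rpl3l and the right panel the log2 ratio of their CPM; vertical axes do not start at 0. Rpl3 lay at 7.70 and 7.74 in untreated heart and between 7.39 and 7.47 in the 4 treated libraries, while Rpl3l overlapped between treated and untreated libraries.

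Large-subunit genes had a median log2 difference of -0.11 with rivaroxaban and -0.07 with dabigatran, and all 39 lay below 0 for both drugs. At an unadjusted p under 0.05 there were 17 of them (43.6%, against 17.2% of all tested genes) with rivaroxaban and 5 (12.8%, against 14.7%) with dabigatran. After Rpl3, the lowest with rivaroxaban was Rpl9, at 8.33 and 8.32 log2 CPM in the untreated libraries, 8.12 and 8.13 with rivaroxaban, and 8.28 and 8.19 with dabigatran. Rivaroxaban lay below every other library, with a log2 difference of -0.20 (SE 0.05, limma adjusted p = 0.0722). Rpl9 passed the test when only untreated and rivaroxaban libraries were fitted (adjusted p = 0.0491). Rpl34 followed at 7.26 and 7.17 untreated, 7.04 and 7.01 with rivaroxaban, and 7.16 and 7.12 with dabigatran. Its log2 difference with rivaroxaban was -0.19 (adjusted p = 0.107), and its libraries did not overlap with untreated for either drug.

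The lowest large-subunit genes with dabigatran after Rpl3 were Rpl21, Rpl5, Rpl23a and Rpl8. Rpl21 stood at 8.17 and 8.10 log2 CPM untreated, 7.99 and 7.97 with rivaroxaban, and 8.01 and 7.96 with dabigatran, with log2 differences of -0.16 (adjusted p = 0.139) and -0.15 (adjusted p = 0.182). Its treated libraries all lay below the untreated ones, and the drugs overlapped. Rpl5, which with Rpl11 carries 5S ribosomal RNA and can bind the p53 regulator MDM2, stood at 8.77 and 8.63 untreated, 8.53 and 8.58 with rivaroxaban, and 8.62 and 8.50 with dabigatran. Its log2 differences were -0.14 (adjusted p = 0.262) and -0.14 (adjusted p = 0.325). Those of Rpl11 were -0.14 (adjusted p = 0.191) and -0.07 (adjusted p = 0.546). Rpl23a, a protein at the exit of the peptide tunnel, had log2 differences of -0.11 and -0.13, and Rpl8 of -0.16 and -0.12. With rivaroxaban, the large-subunit genes closest to untreated heart were Rpl22 (-0.02, and -0.04 with dabigatran) and Rpl10a (-0.05 and -0.04), a protein of the mobile L1 stalk.

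Small-subunit genes had median log2 differences of -0.09 with rivaroxaban and -0.05 with dabigatran. All 31 lay below 0 with rivaroxaban and 30 with dabigatran, and none passed limma's test. At an unadjusted p under 0.05 there were 8 with rivaroxaban (25.8%, against 17.2% of all tested genes) and 1 with dabigatran (3.23%, against 14.7%). Rps19, the gene most often mutated in Diamond-Blackfan anaemia, an inherited failure of red cell production, stood lowest of the small subunit for both drugs. Its log2 CPM was 7.32 and 7.27 untreated, 7.11 and 7.13 with rivaroxaban, and 7.22 and 7.13 with dabigatran, so that all 4 treated libraries lay below both untreated ones. The log2 differences were -0.18 (adjusted p = 0.123) and -0.12 (adjusted p = 0.333). Over the 16 Diamond-Blackfan genes among the members the medians were -0.11 and -0.06, as over all 78.

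In 28 of the 31 small-subunit genes (90.3%) both rivaroxaban libraries lay below both untreated ones, against 24.5% of all tested genes. Rps24 was the member closest to untreated heart with rivaroxaban, at 8.77 and 8.74 log2 CPM untreated, 8.75 and 8.73 with rivaroxaban, and 8.76 and 8.71 with dabigatran. All 3 groups overlapped. Rps9 (-0.05 with rivaroxaban and -0.03 with dabigatran) was also near untreated heart. Rps6, the substrate of the S6 kinases downstream of mTORC1, had log2 differences of -0.05 and -0.05. Rps27 varied within a group: it stood at 7.64 in rivaroxaban replicate 14 and 7.85 in replicate 15, against 7.78 and 7.82 untreated, and 7.89 and 7.81 with dabigatran. Its rivaroxaban difference was -0.06 with both libraries and 0.05 without replicate 14.

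The stalk proteins, which recruit elongation factors to the ribosome, had log2 differences with rivaroxaban of -0.06 for Rplp0, -0.11 for Rplp1 and -0.11 for Rplp2. With dabigatran they were -0.04, -0.04 and -0.005. None passed limma's test, and 1, Rplp2 with rivaroxaban, had an unadjusted p under 0.05. Rplp2 stood at 8.10 and 8.07 log2 CPM untreated, 8.00 and 7.94 with rivaroxaban, and 8.11 and 8.05 with dabigatran. Rivaroxaban lay below both other groups, which overlapped.

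The 4 paralogs had a median log2 difference between the drugs, rivaroxaban minus dabigatran, of -0.16, against -0.04 for each subunit and -0.07 for the stalk, and none passed limma's test. Rps27l, a paralog of Rps27 and a known p53 target, stood at 5.91 and 5.81 log2 CPM untreated, 5.66 and 5.65 with rivaroxaban, and 5.89 and 5.80 with dabigatran. Rivaroxaban lay below both other groups, which overlapped, with a log2 difference from untreated of -0.20 (SE 0.06, adjusted p = 0.137) against -0.02 (adjusted p = 0.937) for dabigatran. Rpl22l1, a paralog of Rpl22, stood at 3.60 and 3.51 untreated, 3.54 and 3.52 with rivaroxaban, and 3.72 and 3.64 with dabigatran. Here dabigatran lay above both other groups, with a log2 difference from untreated of 0.13 (SE 0.09, adjusted p = 0.586). Rpl36al had log2 differences of -0.14 (adjusted p = 0.240) and -0.06 (adjusted p = 0.703), near those of its parent gene Rpl36a (-0.08 and -0.05). Other paralog pairs (Rpl7l1, Rpl10l, Rpl39l and Rps4l with their parent genes) were not analysed here. Rps19bp1, the gene that is not a ribosomal protein, stood at 3.37 and 3.53 untreated, 3.23 and 3.25 with rivaroxaban, and 3.44 and 3.25 with dabigatran, and leaving it out did not move the medians of -0.11 and -0.06.

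**Figure D3:**
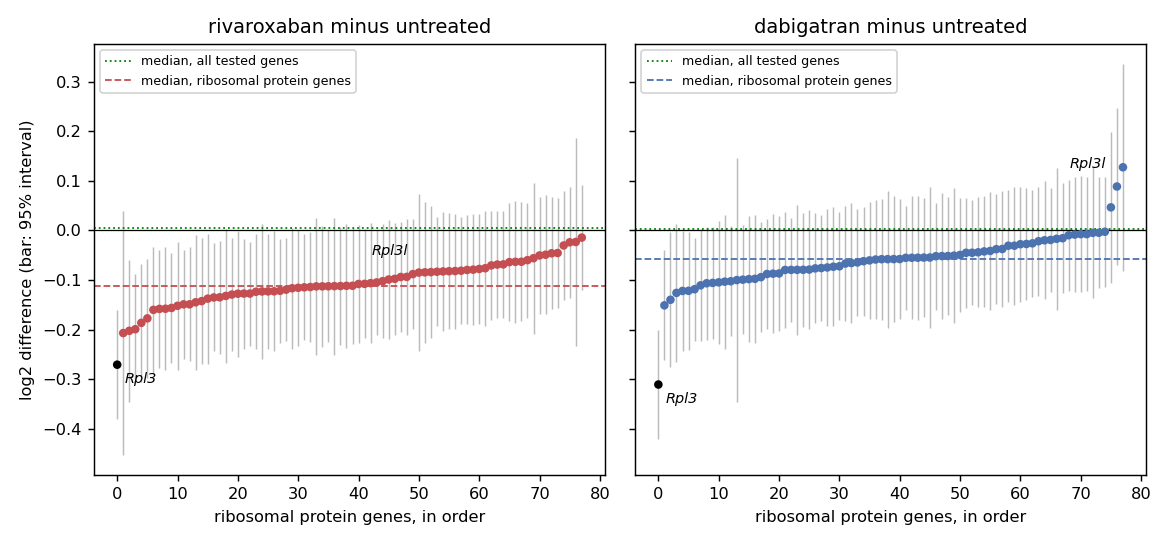
Each point is 1 of the 78 genes in order of its log2 difference from untreated heart, with its 95% interval from limma. Black points passed the adjusted test, the dashed line is the median of the ribosomal protein genes and the dotted green line the median of all tested genes. Rpl3 is the lowest point and the only black one in both panels; all 78 points lie below 0 with rivaroxaban and 75 with dabigatran.

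In the direct comparison of the drugs, 70 of 78 genes were lower with rivaroxaban than with dabigatran, against 49.6% of all tested genes, with a median log2 difference of -0.05 against 0.001. The libraries did not overlap, with rivaroxaban lower, in 29 genes (37.2%) against 20.4% of all tested genes. Other gene groups went the same way. For the 72 mitochondrial ribosomal protein genes the median was -0.09, with 68 below 0 and 58.3% lower without overlap. For 814 other protein-coding genes with transcripts of at most 1000 bases it was -0.06, with 563 below 0 and 34.5% without overlap. For 1257 other genes averaging at least 7 log2 CPM it was -0.03, with 34.2% without overlap. No ribosomal protein gene passed limma's test, where 0.077% of all tested genes did. By limma voom on recovered reads the count was also 0. An unadjusted p under 0.05 was found for 3 members (3.85%), against 8.43% of all tested genes: Rps27l (log2 difference -0.19, adjusted p = 0.460), Rpl3l (-0.17, adjusted p = 0.545) and Rps29 (-0.13, adjusted p = 0.518). Rps29, a small-subunit protein with a zinc finger, stood at 8.04 and 8.09 log2 CPM with rivaroxaban, 8.22 and 8.17 with dabigatran and 8.23 and 8.20 untreated. This difference between the drugs rested on dabigatran replicate 10: without it the median was 0.002 and 37 of 78 genes were lower with rivaroxaban, and without replicate 12 it was -0.08 with 77 of 78 lower. After quantile normalization it was -0.02 with 48 of 78 lower.

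Levels per kilobase of transcript spread widely between the members. The highest mean CPM per kilobase over the 6 libraries was 882 for Rps2, a protein near the mRNA entry channel, and among the next were Rplp1 (814), Rps29 (733) and Rps15 (678). The lowest were Rps19bp1 (12.1), Rpl22l1 (21.7), Rps15a (27.3), Rps20 (44.6) and Rpl22 (79.8). Of these, Rps19bp1 is not part of the ribosome and Rpl22l1 is a paralog. For Rps15a, Rps20 and Rpl22 the annotated principal transcripts are long, at 5130, 3706 and 2048 bases against a median of 754 over the members. A shorter main transcript would raise their level. Within a gene the 6 libraries differed little: the gap between the highest and lowest library had a median of 0.16 log2 and reached 0.34 at most.

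The rest of the translation machinery was set beside these genes from lists. The mitochondrial ribosomal proteins, which build the separate ribosome of mitochondria, had a similar median with rivaroxaban, -0.10, with 64 of 72 genes below 0, and a median of -0.01 with dabigatran. Of these 72, Mrpl45 fell with rivaroxaban by 0.30 log2 (SE 0.06, limma adjusted p = 0.0274), and none passed with dabigatran. An unadjusted p under 0.05 was found for 21 (29.2%) with rivaroxaban and 6 (8.33%) with dabigatran, against 17.2% and 14.7% of all tested genes. Of the 72, 47 (65.3%) and 14 (19.4%) lay below untreated without overlap, against 24.5% and 20.8% of all tested genes. Elongation factors (11 genes) had medians of -0.05 with rivaroxaban and -0.01 with dabigatran, and initiation factors (36 genes) of -0.02 and -0.002. Other mRNAs known to carry a TOP motif (21 genes) had medians of -0.03 and -0.01. No gene of the last 3 lists passed limma's test for either drug. At an unadjusted p under 0.05 there were 1, 2 and 4 of them (9.09%, 5.56% and 19.0%) with rivaroxaban, against 17.2% of all tested genes. With dabigatran there were 1, 3 and 1 (9.09%, 8.33% and 4.76%), against 14.7%. Both rivaroxaban libraries lay below both untreated ones in 45.5%, 44.4% and 42.9% of these lists, against 24.5% of all tested genes. Both dabigatran libraries did so in 27.3%, 13.9% and 33.3%, against 20.8%. Rivaroxaban lay above without overlap in 9.09%, 19.4% and 23.8%, against 26.1%. Dabigatran lay above in 9.09%, 16.7% and 9.52%, against 22.8%. The TOP list shares genes with the elongation list (such as Eef1g) and the initiation list (such as Eif4b), so a gene can count in both. Among the TOP mRNAs, Eef2, which moves the ribosome along the mRNA, had log2 differences of 0.11 and 0.04. Rack1, which sits on the small subunit, had -0.09 and -0.09, and Fau -0.10 and -0.05.

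Genes that make and assemble ribosomes had medians slightly above 0 for both drugs. The 74 tested assembly factors had median log2 differences of 0.04 with rivaroxaban and 0.03 with dabigatran, and none passed limma's test. An unadjusted p under 0.05 was found for 3 (4.05%) and 2 (2.70%), against 17.2% and 14.7% of all tested genes. Both treated libraries lay above both untreated ones in 27 (36.5%) and 23 (31.1%), against 26.1% and 22.8% of all tested genes. They lay below in 11 (14.9%) and 6 (8.11%), against 24.5% and 20.8%. For RNA polymerase I and its factors, which transcribe ribosomal RNA, the medians over 15 genes were 0.04 and 0.06. At an unadjusted p under 0.05 there were 4 (26.7%) and 3 (20%), against 17.2% and 14.7% of all tested genes. Treated libraries lay above untreated without overlap in 6 (40%) and 7 (46.7%), and below in 4 (26.7%) and 2 (13.3%). Of the 15, only the polymerase subunit gene Polr1e passed limma's test, for both drugs. Its log2 CPM was 5.30 and 5.42 untreated, 4.97 and 4.98 with rivaroxaban, and 4.91 and 4.83 with dabigatran. Polr1e fell by 0.39 log2 with rivaroxaban (SE 0.07, limma adjusted p = 0.0214) and by 0.49 with dabigatran (SE 0.07, limma adjusted p = 0.00954). Of 36 genes of the mTORC1 pathway and of TOP mRNA control (medians -0.02 and 0.03), Ddit4 alone passed the test, for both drugs. Of all tested genes, 2.46% and 1.88% were called in either direction. In this list an unadjusted p under 0.05 was found for 10 (27.8%) and 7 (19.4%), against 17.2% and 14.7% of all tested genes. Ddit4, which encodes an inhibitor of mTORC1, stood at 4.59 and 4.45 log2 CPM untreated, 5.72 and 5.88 with rivaroxaban, and 6.26 and 5.77 with dabigatran. It rose by 1.28 log2 with rivaroxaban (limma adjusted p = 8.14e-04) and by 1.50 with dabigatran (limma adjusted p = 3.33e-04). Larp1 had log2 differences of -0.01 and -0.03.

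**Figure D4:**
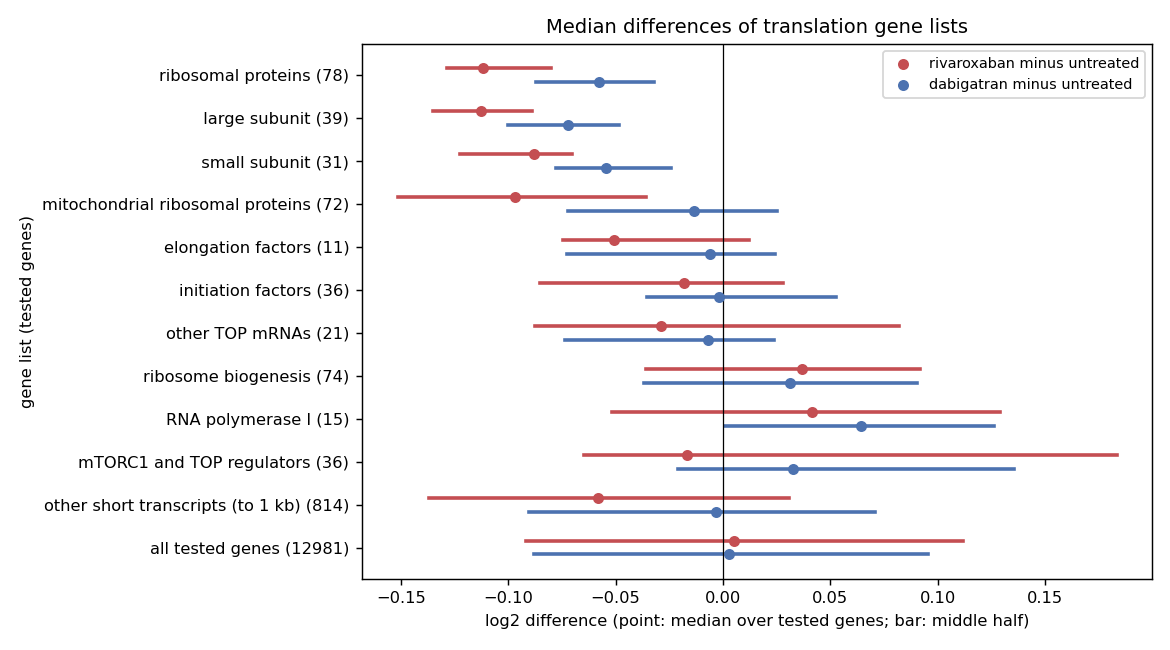
Points are the median log2 difference from untreated heart over the tested genes of each list (number in brackets) and bars span the quartiles. Cytosolic and mitochondrial ribosomal proteins lie furthest below 0 with rivaroxaban, at -0.11 and -0.10, and other short transcripts at -0.06.

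Short transcripts of other genes also lay below 0 with rivaroxaban. Of the 78 members, 57 have a principal transcript of at most 1000 bases. The 814 other tested protein-coding genes that short had a median log2 difference of -0.06 with rivaroxaban, with 558 below 0, and of -0.003 with dabigatran. The 1257 other genes with a mean of at least 7 log2 CPM had medians of -0.02 and 0.005. The part of transcript length in the ribosomal protein differences was not tested.

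Markers of other cells moved as well. Of 8 mesothelial markers, 6 fell (Msln, Upk3b, Krt19, Krt18, Lrrn4 and Gpm6a) and Wt1 rose with rivaroxaban, while Msln, Upk3b and Gpm6a fell and Wt1 rose with dabigatran. The summed CPM of this list was 89.1 and 85.5 untreated, 47.5 and 55.9 with rivaroxaban, and 59.9 and 61.7 with dabigatran, and none of its genes had 0 reads in any library. The summed CPM of the ribosomal protein genes was 20563 to 22457. A sum over markers does not measure how much ribosomal protein mRNA those cells held. Of the endothelial and of the pericyte and smooth muscle markers, 1 in each fell with rivaroxaban, Emcn by 0.43 log2 and Myh11 by 0.34. No tested cardiomyocyte, fibroblast or leukocyte marker passed limma's test for either drug. At an unadjusted p under 0.05 there was none with rivaroxaban, and 1 cardiomyocyte and 1 fibroblast marker with dabigatran. Of all tested genes, 17.2% and 14.7% had such a p. Of 8 listed cardiomyocyte markers, 6 were tested. Their median log2 difference was -0.07 with rivaroxaban, with 5 below 0, and -0.03 with dabigatran, with 4 below 0. Both treated libraries lay below both untreated ones in 4 (66.7%) and 2 (33.3%), against 24.5% and 20.8% of all tested genes. The summed CPM of these markers was 74967 and 76369 untreated, 71348 and 72874 with rivaroxaban, and 73647 and 74684 with dabigatran. The summed CPM of the leukocyte list lay between 129.3 and 147.8 in the 6 libraries. The red cell marker Slc4a1 rose with dabigatran by 2.12 log2 (limma adjusted p = 0.0487) and had a log2 difference of 1.67 with rivaroxaban (adjusted p = 0.0982). Its treated libraries did not overlap with untreated for either drug. Of 8 listed red cell markers, 2 were tested. The other had log2 differences of 0.98 with dabigatran and 0.87 with rivaroxaban and was not called. The summed CPM of the list was low: 7.05 and 3.06 untreated, 8.79 and 10.2 with rivaroxaban, and 11.9 and 9.67 with dabigatran. The part of cell composition in the ribosomal protein differences was not tested.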

How the data were processed

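Per the submitters' processing notes, reads were handled with bcl2fastq, FastQC, Trim Galore, STAR and edgeR on mm10. Versions, counter and annotation were not stated. The library kit was directional, per the labels' protocols. The deposited values are log2 CPM scaled by TMM, per the file headers and file name, with a shared floor of -4.04. Reads were recovered from them: 100% of low values (under 200 steps) were whole within 0.02 reads.

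Members matched the naming rule on the first symbol; 6 rows that list their protein-coding type more than once were kept. Genes averaging 0 log2 CPM or more (12981 of 16229) were fitted together in limma 3.58.1 (R 4.3.3), with 3 group means over 6 libraries and a mean-variance trend (3 residual and 7.75 prior degrees of freedom). Tests were two-sided and adjusted by Benjamini-Hochberg over all tested genes, with a threshold of 0.05. Positions and transcript lengths (median principal transcript) are from GENCODE M21 on GRCm38. The code was tested on simulated data.

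The members and lists were chosen with earlier results of these data known. Genes named were those past the threshold, the 6 highest and 6 lowest members of each comparison, paralog pairs, the 5 highest and 5 lowest by level, and called list genes; other genes were named after their values were seen. A few genes that met these rules are not reported here; counts and medians include them. In all, 16 alternatives were run.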

Additional observations from a re-analysis of the deposited data

How the results depend on the processing

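With no mean-variance trend in limma, no member and no other gene passed in any comparison; the count of members called lower was 0 for rivaroxaban and 0 for dabigatran against untreated, with 5 and 1 of 78 at an unadjusted p under 0.05, where 1938 and 1728 of 12981 genes had one, and the adjusted p of Rpl3 was 0.167 and 0.183. Fitting only the 2 groups compared gave 2 members called lower with rivaroxaban (Rpl3 and Rpl9). Leaving out 1 library at a time, which assumes that a lone sample varies like the other groups, gave 0 to 2 members called lower with rivaroxaban and 0 to 1 with dabigatran. The member medians then ranged from -0.129 to -0.0865 with rivaroxaban, from -0.0993 to -0.017 with dabigatran and from -0.0837 to 0.0018 for rivaroxaban minus dabigatran, the last without dabigatran replicate 10. The cause was not tested. Over the other alternatives (no filter, a filter at 3, other scalings, an offset of 1 CPM, voom and the strict reading of the type column) Rpl3 alone was called with each drug.

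Many members turned sign without 1 library: those below 0 went from 75 to 49 for dabigatran without replicate 12, and from 70 to 37 for rivaroxaban minus dabigatran without replicate 10. Those reported here by the naming rule that turned had these ranges of log2 difference. With rivaroxaban they were -0.162 to 0.0506 for Rps27, -0.0696 to 0.0233 for Rpl22l1 and -0.183 to 0.0137 for Rpl3l. With dabigatran they were -0.0383 to 0.0292 for Rplp2, -0.0835 to 0.0741 for Rps14, -0.0659 to 0.0325 for Rps27l, -0.13 to 0.0207 for Rpl36a and -0.00981 to 0.187 for Rpl3l. For rivaroxaban minus dabigatran they were -0.0673 to 0.00748 for Rpl36a, -0.0294 to 0.0458 for Rpl17, -0.00683 to 0.0491 for Rpl22, -0.0406 to 0.0668 for Rpl23a, -0.051 to 0.071 for Rps15, -0.0552 to 0.0667 for Rps6 and -0.209 to 0.00396 for Rps27. No paired analysis was possible because the groups share no replicate number. Over all tested genes, 319, 244 and 10 were called for rivaroxaban, dabigatran and the drugs against each other. Without 1 library these counts were 61 to 410, 73 to 270 and 0 to 20. Quantile normalization gave 154 for dabigatran and 1 between the drugs, and fitting only 2 groups gave 6 between the drugs.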
